A study of Homo sapiens with 16 samples.

Results

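The 44 genes described here encode the machinery of autophagy (21 genes), proteins of the lysosome (15 genes) and the transcription factors and nutrient-sensing proteins that regulate both (8 genes). They were listed by name, with earlier results of these data known, among the 20046 protein-coding genes of the GENCODE annotation of hg38. ChIP-seq (chromatin immunoprecipitation followed by sequencing) mapped H3K27ac, acetylated lysine 27 of histone H3, which is found at active promoters and enhancers, in LX-2, an established line of human hepatic stellate cells. Cells received the vehicle DMSO (control) or 50 µM OSMI-1, an inhibitor of O-GlcNAc transferase (hereafter OGTi), for 24 h, with 4 biological replicates in each arm. All cells were the same line, and a single cell line and a single dose limit the model. The data are a pair of lists that give 3507 lost regions, lower in H3K27ac with OGTi, and 3623 gained regions, higher in it. The lists give positions only, so no level, fold change or replicate value can be printed for any gene, the read depth behind a region is unknown, and no error can be set beside a count. A gene without a listed region may carry unchanged H3K27ac or none at all.

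Autophagy encloses cytoplasm in a double membrane, the autophagosome, which fuses with the lysosome, where acid hydrolases digest its content. The ULK1 kinase complex starts the process, a phosphatidylinositol 3-kinase complex built on BECN1 marks the membrane, and a conjugation machinery attaches ubiquitin-like proteins of the ATG8 family to it. The MiT/TFE factors TFEB, TFE3 and MITF bind an E-box within the so-called CLEAR element of many lysosomal promoters, and the Rag GTPases with folliculin place these factors under the control of nutrients. In stellate cells, autophagy is known for the breakdown of lipid droplets during activation to myofibroblasts.

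The lists were first checked at cell type genes. Lost regions lay within 2500 bp of the 5′ ends of COL1A1, COL1A2 and PDGFRB, genes of the activated stellate cell, and inside ACTA2, and a gained region lay inside COL1A1. VIM, LOX, the hepatocyte gene ALB and the cholangiocyte gene KRT19 had no listed region at the 5′ end or in the gene, while lost regions lay inside the leukocyte gene PTPRC (5 regions) and the endothelial gene PECAM1 (1 region). Lists of changed regions alone cannot verify the cell type.

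The promoters of 5 members with a gained region carried the E-box CACGTG, and these are shown first. All 12 of their matches lay inside the gained region, but so did the whole promoter window searched in each of the 5. Any match found there had to lie inside, so these positions do not link the E-box to the gain. The sequences are those of RefSeq (GRCh38.p14), printed 5′ to 3′ in the direction of the gene with the E-box in capitals, and positions count from the RefSeq start as base 1, with base -1 just before it. LAMP1, an abundant glycoprotein of the lysosomal membrane, held 6 matches within the stretch from base -200 to base 18 (chr13:113297039-113297256, plus strand). ATG3, the E2-like enzyme that transfers ATG8 proteins to lipid, held a pair of matches around its start (chr3:112561951-112561980, minus strand). The other stretches came from CTSD, the aspartic protease cathepsin D (chr11:1763956-1763985, minus strand), FNIP1, a folliculin partner (chr5:131797101-131797197, minus strand), and RRAGC, a Rag GTPase (chr1:38859867-38859896, minus strand).
LAMP1: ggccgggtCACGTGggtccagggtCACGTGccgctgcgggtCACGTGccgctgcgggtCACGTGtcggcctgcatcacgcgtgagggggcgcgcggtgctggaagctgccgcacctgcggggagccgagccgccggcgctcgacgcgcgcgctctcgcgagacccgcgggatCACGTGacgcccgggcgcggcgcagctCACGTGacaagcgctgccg
ATG3: CACGTGccgggagagtctagtgtCACGTGa
CTSD: ccggccgcgccCACGTGaccggtccgggtg
FNIP1: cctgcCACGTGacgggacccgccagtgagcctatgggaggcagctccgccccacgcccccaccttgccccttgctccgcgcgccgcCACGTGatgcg
RRAGC: aggtgattccggCACGTGacggggcaccac

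For contrast, 3 lysosomal members held the same letters but had no listed region anywhere within 100 kb. These were MCOLN1, the lysosomal calcium channel mucolipin 1 (chr19:7522564-7522633, plus strand), CTSA, the protective protein cathepsin A (chr20:45891290-45891319, plus strand), and ATP6V0D1, a subunit of the proton pump that acidifies the lysosome (chr16:67481200-67481229, minus strand).
MCOLN1: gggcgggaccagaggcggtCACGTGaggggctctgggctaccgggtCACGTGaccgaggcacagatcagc
CTSA: tgtCACGTGgcgccggagttCACGTGactc
ATP6V0D1: gcccccttatggtCACGTGaggcgcttgcg

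A gained region lay within 2500 bp of the gene's 5′ end in 13 of the 44 members (29.5%), against 6.34% of the 20002 other protein-coding genes. No member had a lost region within that distance, where 2.02% of the other genes did. A list of 44 genes is too short to tell these shares apart, and the absence of lost regions is no result about the members. When the starts of all annotated transcripts counted, MITF and ATG14 had a lost region within 2500 bp (4.55% of members, against 3.43% of other genes). The gained share was alike in the classes, with 6 of 21 autophagy genes (28.6%), 4 of 15 lysosomal genes (26.7%) and 3 of 8 regulators (37.5%). One gene more or less moves such a share by several points in classes of this size. Since the lists hold no replicate value, these counts have no test, and a share above the background describes these lists only.

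**Figure D1:**
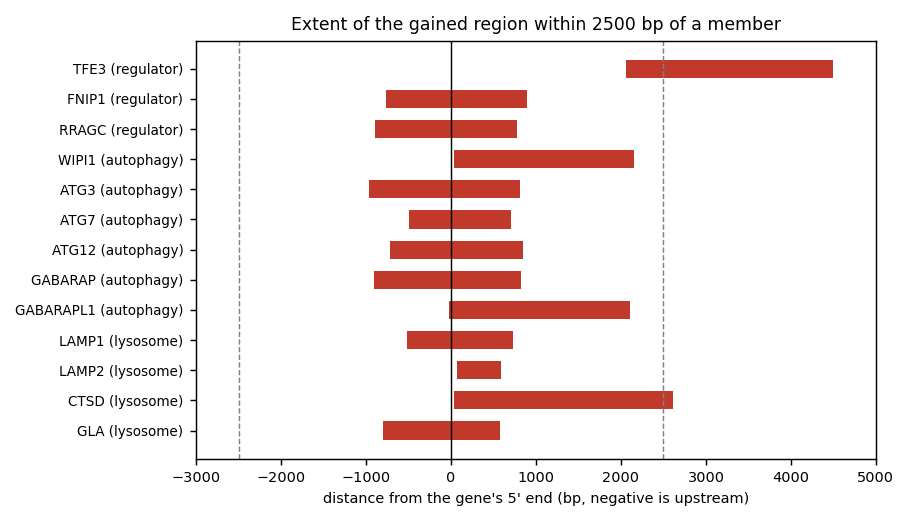
Extent of the gained region (red bar) of each of the 13 members with one within 2500 bp, in bp from the GENCODE 5′ end (black line), with negative values upstream and dashed lines at 2500 bp on either side. The bars of 9 members cross the 5′ end, and that of TFE3 begins 2056 bp downstream of it.

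Among the regulators, a gained region lay at TFE3, FNIP1 and RRAGC, and the other MiT/TFE genes had lost regions only. The gained region of TFE3 (chrX:49038919-49041354, 2436 bp) began 2056 bp downstream of the 5′ end, over exons 2 and 3 of the MANE Select transcript and the introns around them. It was the member nearest to the 2500 bp limit from inside, and MAP1LC3B, at 3891 bp, was the nearest from outside. At FNIP1 the gained region (chr5:131796128-131797780, 1653 bp) covered the 5′ end, from position -763 to 889 (in bp, negative upstream), and an unnamed protein-coding gene on the same stretch (ENSG00000273217) shared it. At RRAGC it (chr1:38858991-38860671, 1681 bp) reached from position -899 to 781, with no other protein-coding 5′ end within 2500 bp. TFEB, the MiT/TFE factor best known for lysosomal genes, had a single lost region of 464 bp, 31.3 kb upstream and nearer to another gene. MITF, the melanocyte-inducing factor of this family, had a pair of lost regions in intron 1 of its long transcript (chr3:69786197-69788802 and chr3:69867591-69869869), 46.7 kb and 128 kb from the 5′ end. The second of these lay 1324 bp from the start of a shorter MITF transcript. FNIP2, the other folliculin partner, had a lost region in intron 16 (chr4:158902230-158903331), 133 kb from its 5′ end. FLCN, folliculin itself, and the Rag GTPase gene RRAGD had no listed region in the gene or within 100 kb.

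Neither list held a promoter region at the 4 initiation genes. Among other protein-coding genes 6.34% had a gained and 2.02% a lost one, so this absence is no result about so few genes. ULK1, the kinase that starts autophagosome formation, had a lost region 41.3 kb and a gained region 33.0 kb upstream, both nearer to MMP17. ATG9A, the membrane protein carried by the vesicles that seed autophagosomes, had a lost region 44.4 kb upstream and a gained one 50.9 kb downstream, the latter at the 5′ ends of CNPPD1 and RETREG2. ULK2, the paralogue of ULK1, had a lost region of 398 bp at 97.2 kb, and ATG13, the adaptor of the complex, had none.

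In the phosphatidylinositol 3-kinase complex and its effectors, a promoter region was found at WIPI1 alone. WIPI1 encodes a phosphoinositide-binding protein of the early autophagosome, and its gained region (chr17:68455366-68457478, 2113 bp) ran from 35 to 2147 bp downstream of the 5′ end, over exon 1 and intron 1. A second gained region lay 72.0 kb downstream, with WIPI1 as the nearest protein-coding gene. ATG14, the subunit that directs the complex to autophagy, carried a pair of lost regions inside the gene, over exon 6 and intron 5 (chr14:55382030-55384138) and in intron 4 (chr14:55387390-55390230). The latter lay 1072 bp from the start of a shorter annotated ATG14 transcript. UVRAG, which takes the place of ATG14 in another form of the complex, had a gained region in intron 7 (chr11:75968300-75969364), 153 kb from its 5′ end, and a lost region 46.5 kb upstream. BECN1, the scaffold, had 2 gained regions at 57.6 and 88.3 kb, at the 5′ ends of VPS25 and EZH1. WIPI2 had none.

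A gained promoter region lay at 3 of 5 genes of the ATG8 conjugation machinery and at 2 of 5 of the ATG8 family. Among other protein-coding genes the share was 6.34%. Groups of so few genes cannot be ranked, and by its MANE Select start MAP1LC3B of the ATG8 family also entered. At ATG3 the gained region (chr3:112561234-112563007, 1774 bp) spanned the 5′ end from position -961 to 812 and was shared with the divergent gene SLC35A5. A pair of abutting lost regions lay 88.1 and 90.1 kb upstream of ATG3, nearest to CCDC80. At ATG7, the E1-like enzyme that activates ATG8 proteins and ATG12, the gained region (chr3:11271812-11273012, 1201 bp) covered the 5′ end, and a second gained region lay in intron 1 (chr3:11278531-11280377, 1847 bp), 6.22 kb downstream. ATG7 also had a lost region 59.4 kb upstream, for which it was the nearest gene. At ATG12, the ubiquitin-like protein joined to ATG5, the gained region (chr5:115840990-115842551, 1562 bp) covered the 5′ ends of both ATG12 and AP3S1. ATG5 itself had a pair of lost regions far inside its longest annotated extent (chr6:106128747-106130656 and chr6:106158454-106160272), 195 and 166 kb from its 5′ end and outside the MANE Select transcript. The 5′ end of PRDM1 was nearer to both, at 135 and 165 kb. ATG16L1, which brings the conjugation enzyme to the membrane, had no listed region.

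In the ATG8 family, gained regions covered the 5′ ends of GABARAP and GABARAPL1. The region at GABARAP (chr17:7241626-7243356, 1731 bp) lay within 2500 bp of the 5′ ends of PHF23 and an unnamed gene (ENSG00000262526). It covered neither of these ends, and the nearer was 1279 bp away. Gained regions at the neighbours DVL2 and CTDNEP1 lay 7.23 and 8.38 kb from the GABARAP 5′ end. The region at GABARAPL1 (chr12:10212436-10214564, 2129 bp) ran from position -22 to 2106 and so lay almost wholly downstream. MAP1LC3B, which encodes the common autophagosome marker LC3B, had gained regions 3.89 and 7.21 kb downstream of its GENCODE 5′ end (chr16:87387844-87389777 and chr16:87391166-87393572). The MANE Select transcript of MAP1LC3B starts 8383 bp downstream of that end, and the second region covered this start and a start of FBXO31. MAP1LC3B is therefore counted outside the 2500 bp limit by the gene's outermost 5′ end and inside it by the MANE Select start. MAP1LC3A, the paralogue, had a lost region of 1376 bp, 36.0 kb downstream, and GABARAPL2 had none. Of the receptors that tie cargo to ATG8 proteins, NBR1 had a gained region 44.1 kb upstream and OPTN had none.

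Among the lysosomal genes, the membrane proteins LAMP1 and LAMP2 and the hydrolases CTSD and GLA had a gained promoter region. The region at LAMP1 (chr13:113296726-113297962, 1237 bp) reached from position -513 to 723. It contained the whole promoter window searched, and with it all 6 E-box matches printed above. The one at LAMP2 (chrX:120468774-120469298), the partner of LAMP1 that also serves in chaperone-mediated autophagy, was the shortest of the 13 at 525 bp, and a second gained region lay 48.4 kb upstream. CTSD had the longest (chr11:1761959-1764537, 2579 bp), which ran from 36 to 2614 bp downstream of the outermost 5′ end and covered the MANE Select start, 646 bp downstream of that end. A readthrough gene (ENSG00000250644) shares this start, and a further gained region lay 6.95 kb upstream of CTSD (chr11:1771521-1774032). At GLA, the alpha-galactosidase deficient in Fabry disease, the region (chrX:101407441-101408812, 1372 bp) was shared with the divergent gene HNRNPH2.

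The peptidase genes CTSL and CTSB had gained regions upstream of their promoters and none at them. CTSL, cathepsin L, had 3 gained regions, which began 7.61, 9.04 and 11.2 kb upstream, and no other protein-coding 5′ end lay within 166 kb of the closest of them. The shortest of these (chr9:87716239-87716438, 200 bp, hg38 plus strand) is printed whole, and none of the motifs searched below had a match in it.
CTSL upstream region: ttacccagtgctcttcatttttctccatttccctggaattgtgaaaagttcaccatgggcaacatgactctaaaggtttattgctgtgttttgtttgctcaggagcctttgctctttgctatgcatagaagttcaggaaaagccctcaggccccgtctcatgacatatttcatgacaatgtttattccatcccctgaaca

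The other members of the class had few regions or none. CTSB, cathepsin B, had a gained region 6.31 kb upstream (chr8:11875843-11877842, 2000 bp), for which it was the nearest gene, and another 65.8 kb downstream, nearer to FDFT1. NEU1, the lysosomal sialidase, had a gained region 47.3 kb upstream. The only lost region within 100 kb of a lysosomal gene lay 60.1 kb upstream of ATP6V1H, a subunit of the proton pump. MCOLN1, CTSA, CTSK, CTSZ, HEXA, ATP6V0D1 and ATP6V1A had no listed region. In all, 14 of the 44 members had none within 100 kb or in the gene.

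**Figure D2:**
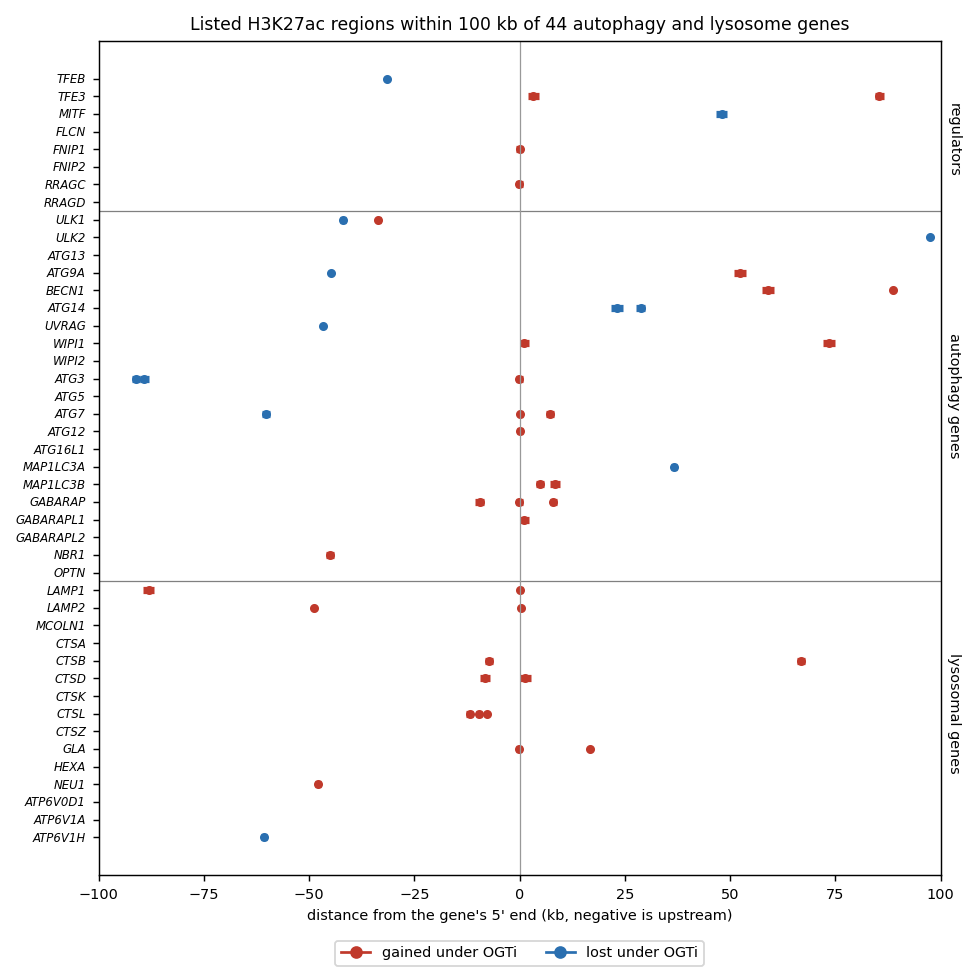
Position of each listed region within 100 kb of the 44 members, in kb from the gene's 5′ end (negative upstream), with red for gained and blue for lost, dots at the region centres and bars for the extents. Gained regions gather at the 5′ end, and no lost region lies closer than 21.6 kb (ATG14).

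Farther from the genes, the gained share came closer to the background and lost regions entered. Within 100 kb, 21 members (47.7%) had a gained region, against 29.4% of other protein-coding genes, and 11 (25%) had a lost one, against 20.4%. Both kinds lay within 100 kb of 4 members (9.09%), ULK1, ATG9A, ATG3 and ATG7, against 6.54% of other genes. The shares for lost regions and for both kinds were near the background and are no result about the members. Lost regions lay within 100 kb of 8 of 21 autophagy genes (38.1%) and of 1 of 15 lysosomal genes (6.67%), a difference that was not tested. In the wider pathway lists read below, the order was reversed. There, a lost region lay within 100 kb of 5 of 40 other autophagy genes (12.5%) and of 14 of 57 other lysosomal genes (24.6%). The contrast between the classes is therefore no result about autophagy or the lysosome. With each region counted for its nearest gene only, the members with a lost region were ATG14, ATG7, MAP1LC3A and MITF, 4 in place of 11. Within the gene, 15 members (34.1%) held a gained region, against 10.8% of other genes, and 4 (9.09%) a lost one, against 6.65%. For 13 of these 15 the gained region was the one within 2500 bp of the 5′ end.

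**Figure D3:**
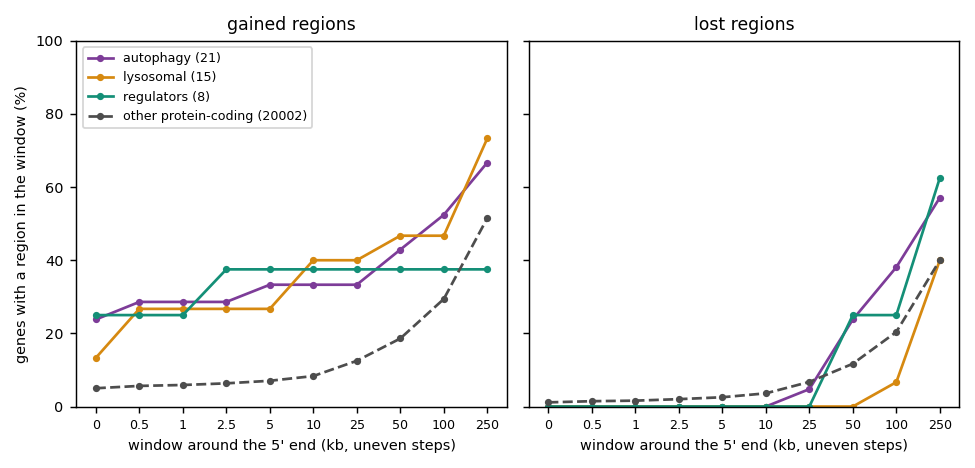
Percentage of genes with a gained (left) or lost (right) region within a window around the 5′ end, for windows from 0 to 250 kb in uneven steps. The coloured lines are the 3 gene classes and the dashed line the other protein-coding genes. For gained regions the classes lie above the dashed line from the smallest window on, except the regulators at 250 kb, and for lost regions all members lie at 0 up to 10 kb.

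Many of the regions beyond the promoters belonged as much to other genes. Of the 35 gained regions within 100 kb of a member, 13 were the promoter regions and 22 lay beyond 2500 bp, of which 10 were within 2500 bp of another protein-coding gene's 5′ end and 8 had the member as nearest gene. These 8 were at WIPI1, ATG7, LAMP2, CTSB, CTSD and, with 3, CTSL. Of the 13 lost regions, 5 had the member as nearest gene, at MITF, ATG14 (2 regions), ATG7 and MAP1LC3A. Among the 13 promoter regions, 6 lay within 2500 bp of another protein-coding 5′ end (FNIP1, ATG3, ATG12, GABARAP, CTSD and GLA). All of these but the one at GABARAP covered that other end. The remaining 7 did not lie so near another end (TFE3, RRAGC, WIPI1, ATG7, GABARAPL1, LAMP1 and LAMP2). Which of the genes at such a region the change belongs to cannot be told apart.

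The 13 promoter regions covered the 5′ end itself in 9 members, against 78.9% of the 1268 other genes with a gained region within 2500 bp. Their median width was 1681 bp (525 to 2579 bp), beside 1554 bp for all 1122 gained regions within 2500 bp of a protein-coding 5′ end. Position and width of the members' regions were thus close to those of other gained promoter regions.

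**Figure D4:**
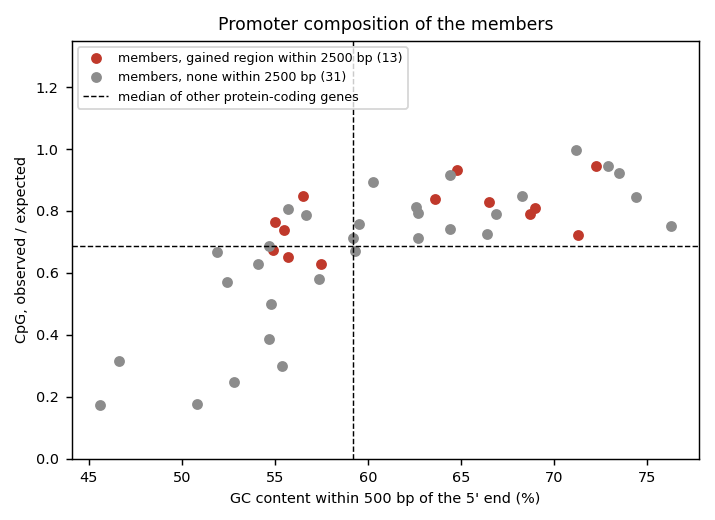
GC content (%) and observed over expected CpG within 500 bp of the 5′ end for the 44 members, in red for the 13 with a gained region within 2500 bp and in grey for the 31 without, with dashed lines at the medians of other protein-coding genes. All red points have a CpG ratio of at least 0.628, and the lowest ratios belong to CTSK and TFEB among the grey ones.

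Composition was measured around the outermost GENCODE 5′ end, which for some members is far from the MANE Select start, and its relation to the gain was not tested. All 13 members with a gained promoter region had a CpG-rich promoter (GC content of at least 50% and an observed over expected CpG of at least 0.6 within 500 bp of the 5′ end), against 22 of the 31 without, and 82.6% of the 1268 other genes with a gained region there had one too. CpG-rich promoters made up 35 of the 44 members (79.5%) and 57.9% of other genes. Among CpG-rich promoters alone, a gained region lay at 13 of 35 members and at 9.05% of other genes. The members' own GC content ranged from 45.6% (CTSK) to 76.3% (ULK1), with a median of 59.4%, next to 59.2% for other genes. The CpG-poor members were TFEB, ATG16L1, MAP1LC3A, OPTN, CTSA, CTSB, CTSK, CTSL and CTSZ. Thus 5 of the 6 lysosomal peptidases were CpG-poor by this measure. In all of these members the MANE Select start lay outside the 500 bp measured, from 651 bp (TFEB) to 41622 bp (ATG16L1) downstream. It also lay outside for BECN1, MAP1LC3B, NBR1 and CTSD, which were CpG-rich. Composition at the MANE Select starts was not measured. The part of CpG content in the gained share was not tested beyond the restriction to CpG-rich promoters.

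Promoter letters were then compared in 300-base RefSeq windows, 250 bases before and 50 after the start, found for 35 members and 15310 other genes. The E-box CACGTG, which reads the same on both strands, occurred in 10 of 35 members (28.6%) and in 8.84% of other promoters. It was found in 6 of 9 lysosomal, 2 of 19 autophagy and 2 of 7 regulator promoters. The extended CLEAR letters TCACGTGA, which contain the E-box, were in 5 members (14.3%), ATG3, LAMP1, MCOLN1, CTSA and ATP6V0D1, and in 1.44% of others. The overlapping letters GTCACGTG, searched on both strands, were in 9 members (25.7%) and in 3.42% of others. The CLEAR element and its E-box are known from lysosomal promoters, and the members were listed by name. Higher shares of these letters are therefore no result of these data. No member held the M-box TCATGTGA or the letters TGATGCAA of ATF4 and C/EBP factors, which were in 0.941% and 0.679% of other promoters.

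**Figure D5:**
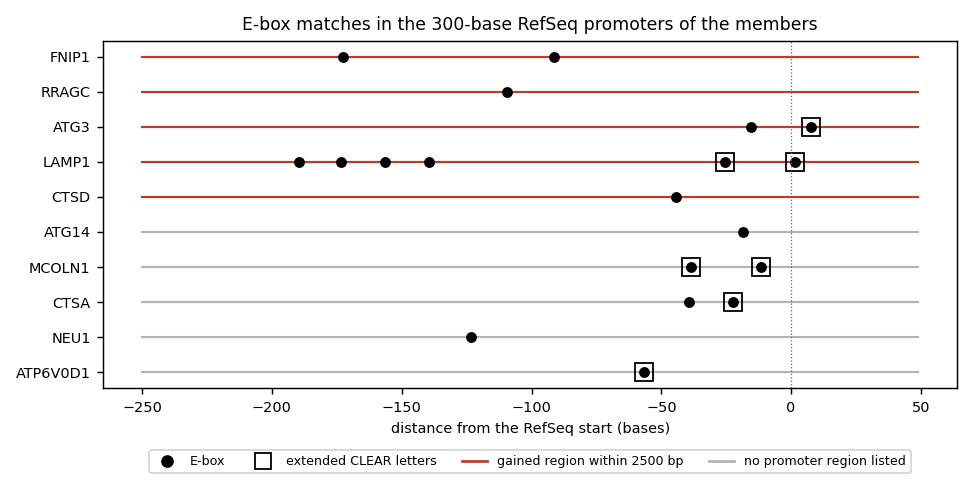
Position of each E-box (dot) and of each extended CLEAR match (square) in bases from the RefSeq start, for the 10 members with an E-box. Red lines are the 5 members with a gained region within 2500 bp and grey lines the 5 without, and LAMP1 has 6 dots.

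E-box letters and gained acetylation met in some members and parted in others. Of the 12 members with a gained promoter region and a RefSeq window, 5 (41.7%) held an E-box, against 5 of 23 (21.7%) without such a region. Those 5 without were ATG14, NEU1, MCOLN1, CTSA and ATP6V0D1. The gain was counted from the GENCODE 5′ end and the letters were read at the RefSeq start, which differ for some members. The MAP1LC3B window, counted among the 23, lay inside a gained region. The TFE3 window and most of the WIPI1 window, counted among the 12, lay outside theirs. None of these windows held an E-box. Among other genes, an E-box was in 14.1% of 1031 promoters with a gained region within 2500 bp and in 8.22% of 304 with a lost one, and the extended CLEAR letters were in 4.17% and in none. The gained promoters without an E-box in the window were TFE3, WIPI1, ATG7, ATG12, GABARAP, GABARAPL1 and GLA. In 1000-bp windows on the region centres, the E-box was in 5 of the 13 members' promoter regions (38.5%), against 23.4% of 1099 other gained regions near a protein-coding 5′ end. It was in 3 of the 13 lost regions within 100 kb of a member (23.1%), against 11.6% of other lost regions beyond 2500 bp. In 200-bp windows it was in 0 of these 13 lost regions, against 2.13%, so the direction depended on the window. In the 1000-bp windows, the longer letters GTCACGTG were in 5 of the same 13 promoter regions, against 8.74% of the other gained ones. They were in none of the 13 lost regions, against 1.13% of other lost regions beyond 2500 bp. In 200-bp windows they were in 2 of the 13 promoter regions (15.4%), against 2.37%. Since the members were listed by name and these letters are known from lysosomal promoters, higher shares in their promoter regions are no result of these data. The letters are a description of sequence, and binding of any factor was not measured.

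The remaining motifs were read in the same windows. The letters CATTCC of TEAD factors were in 7 member promoters (20.0%), against 11.7% of others. By class, 6 of 19 autophagy promoters (31.6%) and none of 9 lysosomal promoters held them. Only 9 of the 15 lysosomal genes had a RefSeq window, and the absence from so few promoters is no result about the class. The TEAD letters were also in 9 of the 13 lost regions (69.2%) by the 1000-bp window, against 61.8% of other lost regions beyond 2500 bp. By 200-bp windows they were in 2 of the 13 (15.4%), against 17.8%. Both shares were near those of other lost regions and are no result about the members. AP-1 letters TGANTCA were in 2 member promoters (5.71%) and 5.74% of others, and the ETS letters CCGGAAGT in 2 (5.71%) and 6.32%. The GC-rich letters GGGCGG of SP and KLF factors were in 27 (77.1%) and 59.2%, with 68.2% for other genes with a gained region within 2500 bp, and the CRE letters TGACGTCA in 1 (2.86%) and 2.64%.

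The wider pathway was read from 142 other genes of autophagy, the lysosome, the V-ATPase proton pump and nutrient sensing. A gained region lay within 2500 bp of 24 of them (16.9%) and a lost one of 3 (2.11%), beside the 6.34% and 2.02% given above. Among 21 other V-ATPase genes, 5 were gained (ATP6AP2, ATP6V0C, ATP6V0E1, ATP6V1B2 and ATP6V1F). None of the 3 V-ATPase members was, but 3 genes are too few to compare. Among 24 other nutrient-sensing genes, the 5 gained were RRAGA, a Rag GTPase, LAMTOR1 and LAMTOR3 of the Ragulator complex that anchors Rag GTPases to the lysosome, and SESN2 and AKT1S1, which restrain the mTORC1 kinase. Among 57 other lysosomal genes, 8 were gained, among them the hydrolase genes GUSB, NAGLU and SGSH, the hydrolase activator PSAP, the chloride transporter CLCN7, the cholesterol transporter NPC1 and the sorting receptor IGF2R. The 6 of 40 other autophagy genes were ATG2A, BNIP3L, EPG5, TAX1BP1, TBK1 and TMEM41B. Lost regions lay at TP53INP2, TPCN1 and TSC1, the last a subunit of the complex that inhibits mTORC1. The share of 16.9% lay between that of the 44 members and that of all other genes, and it was not tested.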

How the data were processed

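H3K27ac ChIP-seq of LX-2 cells (8 libraries, 4 per arm) was processed by the authors. Per the study's methods, reads were aligned to hg38 with Chromap, peaks were called against input with MACS2 (version 2.1.1.20160309 in the submitters' processing notes), and bins were tested over all 8 libraries with MAnorm2. The deposited lists hold 3 columns (chromosome, start, end), other values being absent, and were taken at the adjusted p of 0.15 in their names, although a stricter value stands in the methods text. The other 8 libraries (input and CoP-seq) were not used here.

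Here, starts were made 1-based and each region's distance to the 5′ end of GENCODE release 44 genes was taken with Python 3.11.15 and pandas 2.3.3, and sequence with samtools 1.23.1 and bedtools 2.31.1. A gene was counted when any base of a region lay within 2500 bp or 100 kb. Distances were checked on simulated regions. Every member is accounted for, and other pathway genes are named where a region lay within 2500 bp, except for an item not reported here. Members and gene lists were chosen with earlier results of these data known. No test was made, since the lists hold neither levels nor replicates.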

Additional observations from a re-analysis of the deposited data

How the results depend on the processing

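The number of members with a gained region within 2500 bp (13) stayed between 12 and 14 over windows of 1000 and 5000 bp, all transcript starts, region centres, regions of at least 1000 bp, nearest gene only and, chosen after seeing the data, MANE Select starts. TFE3, LAMP2 or CTSD left and MAP1LC3B entered. The class counts were recomputed for the windows and all transcript starts, at 6 to 7 (autophagy) and 4 (lysosome), and with the regulators placed in the classes they were 7 of 24 and 6 of 20. The gained count within 100 kb ranged from 15 to 28. Lost regions within 2500 bp rose from 0 to 2 (MITF and ATG14) when all transcript starts counted. The count of 11 members with a lost region within 100 kb became 7 within 50 kb, 23 within 250 kb, 7 with regions of at least 1000 bp and 4 with the nearest gene only. No paired analysis was possible because a listed region has no value per replicate, and for the same reason leaving out a replicate and a stricter threshold were not run.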
